A study of Homo sapiens with 4 samples.

Results

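The 6 miRNA names of the miR-320 family and miR-484 were followed in the miR-seq data of U-251 cells, an established human glioblastoma line. They were taken by name from the 746 names of the count table as miR-320a-5p, miR-320b, miR-320c, miR-320d, miR-320e and miR-484. The data consisted of 4 biological replicates that form 1 group, wild-type U251 cells given the vehicle DMSO according to the sample labels, whereas the paper describes basal, non-irradiated cells. With 1 group, no comparison between conditions was possible, and no Drosha-deficient sample was analysed, so how these miRNAs were processed was not measured. U-251 is 1 cell line, and p-values below measure only the spread between its 4 libraries.

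Most miRNA precursors are cropped from longer transcripts in the nucleus by Drosha and its partner DGCR8, and are then cut by Dicer to a short duplex from which 1 strand is loaded onto AGO2. The precursors of miR-320a and miR-484 are known for a different route, in which transcription starting at a promoter directly yields a short capped hairpin that XPO1 exports and Dicer cuts, without Drosha. Because the cap sits on the 5′ end, the 3′ strand of the miR-320a hairpin is the one known to be loaded. The seed, bases 2 to 8 of a mature miRNA, is the part that pairs with target mRNAs.

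The mature sequences of the members explain which names can share reads and are therefore given first. RefSeq (GRCh38.p14) held a mature sequence under the table name for 5 of the 6 members, shown 5′ to 3′ with the seed in capitals.
miR-320b: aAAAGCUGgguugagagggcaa
miR-320c: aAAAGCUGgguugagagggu
miR-320d: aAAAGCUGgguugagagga
miR-320e: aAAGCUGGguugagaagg
miR-484: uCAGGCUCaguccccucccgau

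The miR-320 sequences are nearly nested. Counted from 1 at the 5′ end of miR-320b, miR-320c has the change C20U and miR-320d has G19A, and both end earlier, at 20 and 19 bases against 22. miR-320e starts at base 2 of miR-320b, has the change G17A, and is 18 bases long, so its seed is moved by 1 base. A run of 15 bases is shared by these 4 names. miR-320b, miR-320c and miR-320d have the same seed, while the seed of miR-484 differs from theirs. Of other miRNAs with these seeds, miR-4429 shares that of miR-320b and is not a name of the table, and miR-3155a and miR-3155b share that of miR-484, of which miR-3155a is not a name of the table and miR-3155b had 10 counts over the 4 libraries.

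The position of the mature strand in the hairpin, in capitals below, differs between the miR-320 hairpins and MIR484.
MIR320B1: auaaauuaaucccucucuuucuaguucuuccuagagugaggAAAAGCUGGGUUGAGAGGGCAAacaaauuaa
MIR484: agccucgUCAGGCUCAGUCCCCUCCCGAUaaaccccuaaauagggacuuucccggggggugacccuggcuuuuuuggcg

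In MIR320B1 the mature strand covers bases 42 to 63 of 72, on the 3′ side, and the hairpins of miR-320c, miR-320d and miR-320e have it on the same side. In MIR484 it covers bases 8 to 29 of 79, on the 5′ side. MIR320B1 lies at chr1:116671746-116671817 on the plus strand, and MIR484 at chr16:15643294-15643372 on the plus strand too, inside an exon of NDE1, a coding gene of that strand whose product acts with dynein. The GC content was 63.6% for mature miR-484 and between 47.4% and 50.0% for the 4 miR-320 sequences.

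The annotation separated these genes by their distance to promoters. The 6 members have 9 hairpin genes on 7 chromosomes. The 5′ end of MIR484 lay 27 bases from an annotated start of NDE1. That of MIR320A, at chr8:22244966-22245037 (minus strand), lay 96 bases from a start of POLR3D, a subunit gene of RNA polymerase III, on the other strand. The other 7 hairpins lay 3991 to 76363 bases from the nearest start of a coding transcript (GENCODE release 44). Over all 1562 hairpins with a RefSeq sequence the median distance was 20858 bases, and 8.71% lay within 500 bases. A promoter of a coding gene is thus annotated beside the hairpins of miR-320a and miR-484 but not beside those of miR-320b to miR-320e, although starts of non-coding transcripts were not searched. MIR320B2 lies in an intron of NVL and MIR320E in an intron of PRKD2, each on the strand of the host gene. MIR320C1 and MIR320C2 lie in introns of ABHD3 and OSBPL1A on the opposite strand. MIR320B1, MIR320D1, MIR320D2 and MIR320A overlapped no other annotated gene.

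Total counts lay between 12363104 and 13214969 per library, and levels are given as CPM, counts per 1000000 of that total, with no correction for length, since all are mature miRNA names. Missing values appear as blank cells. The smallest listed value was 1 and a 0 occurs nowhere, so the table does not say whether a blank is a count of 0. Means below are over listed values, and n gives the number of libraries with one. The label of the cells was checked against miR-21-5p, abundant in gliomas, and miR-9-5p, a miRNA of neural cells, which had 30654 CPM ± 16587 and 13899 CPM ± 4366 (SD, n = 4). miR-10b-5p, also known from gliomas, had 435 CPM ± 195 (SD, n = 4), while the neural miR-124-3p and miR-128-3p are not names of the table and were not measured under those names. Outside the list that was checked, miR-128-1-5p is a name of the table, with a mean of 2023 CPM. Which arm of its hairpin these counts came from was not tested. The defining miRNAs of other tissues were low: miR-122-5p of liver had 20.5 CPM ± 10.9 (SD, n = 4), miR-451a of red blood cells was blank in every library, and miR-142-5p of blood cells had 3 counts in 1 library.

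**Figure D1:**
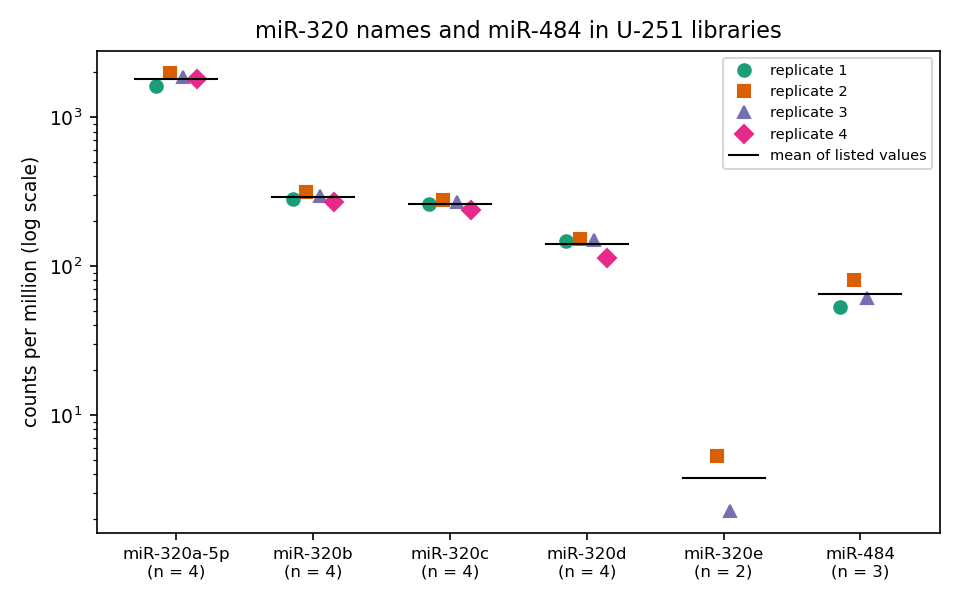
CPM (log axis) of each member in each library, with a symbol per replicate and a line at the mean of the listed values. miR-320a-5p lies between 1615 and 1988 CPM, far above the other members, while miR-484 lacks a point for replicate 4 and miR-320e for replicates 1 and 4.

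The miR-320 family was present in every library and was dominated by 1 name. The counts of miR-320a-5p in replicates 1 to 4 were 20260, 26269, 22882 and 23061. As CPM these were 1615, 1988, 1851 and 1809, with a mean of 1816 CPM ± 154 (SD, n = 4). Replicate 1 was the lowest and replicate 2 the highest, 1.23 times as high. By summed count miR-320a-5p stood at rank 49 of the 621 names with a value, between miR-151b with 1883 CPM ± 187 and miR-432-5p with 1474 CPM ± 408 (SD, n = 4), and its difference from either was smaller than the SD of that neighbour. Next in the order above it was miR-30c-5p with 1895 CPM ± 233, and below it miR-30e-5p with 1432 CPM ± 317 (SD, n = 4).

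miR-320b had 282, 313, 295 and 269 CPM in replicates 1 to 4, with a mean of 290 CPM ± 18.9 (SD, n = 4), at rank 106. miR-320c followed closely with 261, 278, 270 and 237 CPM, a mean of 261 CPM ± 17.5 (SD, n = 4), at rank 109. Both were highest in replicate 2 and lowest in replicate 4, and their ranges overlapped. miR-320d had 146, 151, 149 and 113 CPM, a mean of 140 CPM ± 17.9 (SD, n = 4), at rank 135. Its first 3 libraries were nearly level and replicate 4 lay below them.

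miR-320e, the shortest of the sequences shown, was the lowest member and had a value in 2 of the 4 libraries. It had 70 counts in replicate 2, or 5.30 CPM (95% Wilson interval 4.19 to 6.69), and 28 counts in replicate 3, or 2.26 CPM (95% Wilson interval 1.57 to 3.27). Replicates 1 and 4 were blank. Such intervals cover counting error only, since reads are not independent molecules.

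Summed over its 5 names, the family had 2304, 2735, 2567 and 2429 CPM in replicates 1 to 4. The mean was 2509 CPM ± 185 (SD, n = 4), or 0.251% of all miRNA counts, and as a single name the sum would stand at rank 40. miR-320a-5p contributed 70.1%, 72.7%, 72.1% and 74.5% of it, with a mean of 72.3% ± 1.80 (SD, n = 4). An alternative chosen after seeing the data, which weights each name by how many hairpin genes it has, gave 56.7%. Over all libraries miR-320b held 11.6%, miR-320c 10.4%, miR-320d 5.57% and miR-320e 0.0767% of the summed counts.

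miR-484, known to repress the mitochondrial fission gene FIS1, was far lower. Replicates 1 to 3 had 666, 1071 and 752 counts, and replicate 4 was blank. These are 53.1 CPM (95% Wilson interval 49.2 to 57.3), 81.0 CPM (76.3 to 86.0) and 60.8 CPM (56.6 to 65.3), so replicate 2 lay above the others beyond counting error. Their mean was 65.0 CPM ± 14.4 (SD, n = 3). If the blank were a count of 0 it would allow up to 3 counts, which is 0.235 CPM. By summed count, to which its blank added nothing, miR-484 stood at rank 157, between miR-216a-5p and miR-1301-5p. Within replicates 1, 2 and 3 its rank was 153, 145 and 149. The level of miR-216a-5p was 49.3 CPM ± 13.5 (SD, n = 4), and that of miR-340-5p, next above, was 51.3 CPM ± 35.6 (SD, n = 4). miR-1301-5p had a value in 2 libraries, with 94.0 CPM ± 1.39 (SD, n = 2), and miR-1262, next below, had 45.3 CPM ± 5.45 (SD, n = 4).

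The blank of miR-484 was not the only one beside high counts. Of the 180 names with 500 counts or more in a library, 16 had a blank in another. A single blank beside at least 500 counts in each of the other libraries was found for 4 names, namely miR-484 and miR-1299 in replicate 4, and miR-24-1-5p and miR-100-5p in replicate 1. For miR-24-1-5p the listed values lay between 97326 and 104745. What a blank stands for was not tested, so the level of miR-484 in replicate 4 is not known here.

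**Figure D2:**
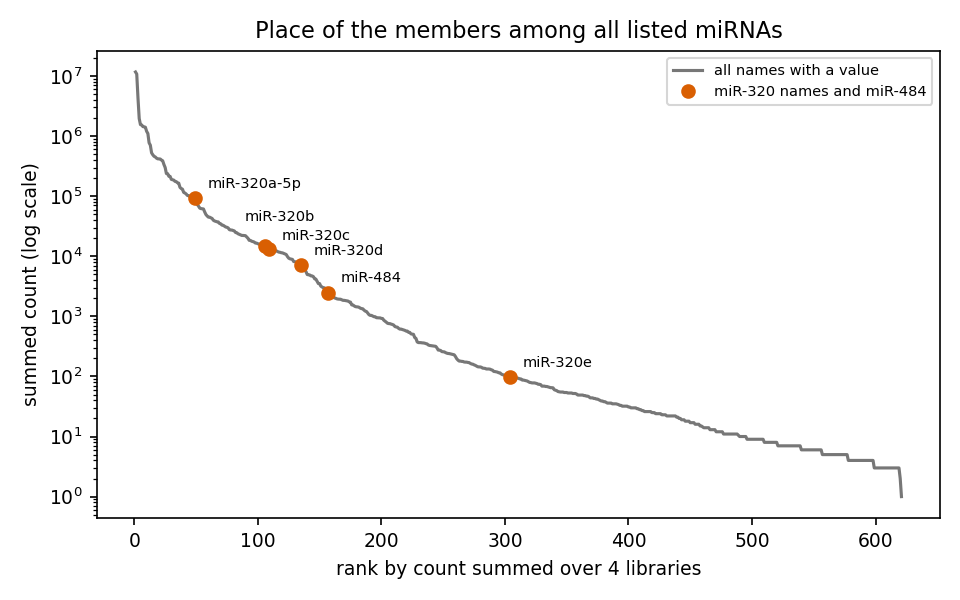
Summed count over 4 libraries (log axis) against rank for all names with a value, with the members as points. miR-320a-5p stands at rank 49, miR-320b, miR-320c and miR-320d between ranks 106 and 135, miR-484 at rank 157 and miR-320e at rank 304.

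By summed count the order of the members was miR-320a-5p, miR-320b, miR-320c, miR-320d, miR-484 and miR-320e. Each of the 5 neighbouring pairs kept this order in every library where both had a value, although the same libraries had set the order. miR-320a-5p exceeded miR-320b by 6.26-fold, which is a log2 ratio of 2.65 ± 0.10 (SD, n = 4). The excess of miR-320b over miR-320c was small but regular, 1.11-fold, or a log2 ratio of 0.15 ± 0.03 (SD, n = 4). miR-320c exceeded miR-320d by 1.88-fold, or a log2 ratio of 0.91 ± 0.11 (SD, n = 4). For these 3 pairs the exact sign-flip permutation test, two-sided, gave p = 0.125, the smallest that 4 libraries allow, and 0.208 after Benjamini-Hochberg adjustment over the 5 pairs. miR-320d exceeded miR-484 by 2.33-fold in the 3 libraries with both (mean log2 ratio 1.22, SD 0.29, exact permutation p = 0.25, the smallest possible, adjusted 0.3125). miR-484 exceeded miR-320e by 20.03-fold in the 2 libraries with both (mean log2 ratio 4.32, SD 0.56, exact permutation p = 0.5, the smallest possible). With this number of libraries none of the pairs could pass a conventional threshold.

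Set against each other, the summed family exceeded miR-484 by 39.5-fold, or a log2 ratio of 5.30 ± 0.20 (SD, n = 3, replicate 4 left out for its blank). The ratio lay between 33.7 and 43.4 in the 3 libraries (exact sign-flip test by permutation, two-sided p = 0.25, the smallest possible). With the blank taken as 0 counts, a setting added after seeing the data, the log2 ratio was 7.96 with an SD of 5.31 over 4 libraries. A ratio within a library does not depend on how libraries are scaled.

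**Figure D3:**
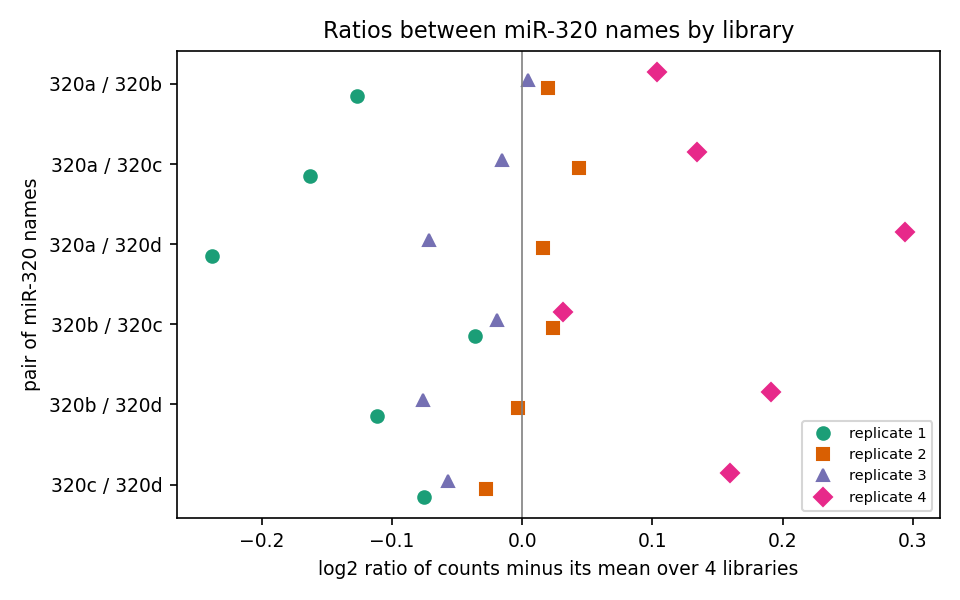
Log2 ratio of counts for each pair of miR-320 names, minus its mean over 4 libraries, with a symbol per replicate. The points of miR-320b over miR-320c lie closest together, and replicate 1 is the lowest and replicate 4 the highest in each of the 6 pairs.

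The names of the family kept their proportions to different degrees. The ratio of miR-320b to miR-320c lay between 1.08 and 1.13 in the 4 libraries. Its chi-square statistic divided by 3 degrees of freedom was 0.887, no more than independent counts would give. Only 0.0973% of all 39060 pairs among the 280 names with at least 10 counts in every library had a smaller SD of their log2 ratio, where the median SD was 0.44. The sequences of miR-320b and miR-320c differ at 1 of 20 compared bases, and both names hold fractional values. Their counts need not be independent, and the part of shared reads in this steady ratio was not tested. The ratio of miR-320a-5p to miR-320b lay between 5.73 and 6.72 and that of miR-320a-5p to miR-320c between 6.20 and 7.62, with statistics of 13.2 and 20.9 per degree of freedom. These changes were beyond sampling noise.

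Pairs with miR-320d varied more. miR-320a-5p was 11.04 to 15.97 times as high as miR-320d (SD of the log2 ratio 0.22, n = 4), with a chi-square statistic of 35.6 per degree of freedom. For miR-320b to miR-320d the ratio was 1.93 to 2.38 and the statistic 9.42, and for miR-320c to miR-320d the ratio was 1.78 to 2.10 and the statistic 5.78. In each of the 6 pairs, which share names, replicate 1 had the lowest ratio and replicate 4 the highest. The first name of every pair is thus relatively lower in replicate 1, and miR-320d, at 19 bases the shortest of the sequences shown for these pairs, was relatively lowest in replicate 4. The part of sequence length and of the assignment of reads to nearly nested names in these differences was not tested.

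**Figure D4:**
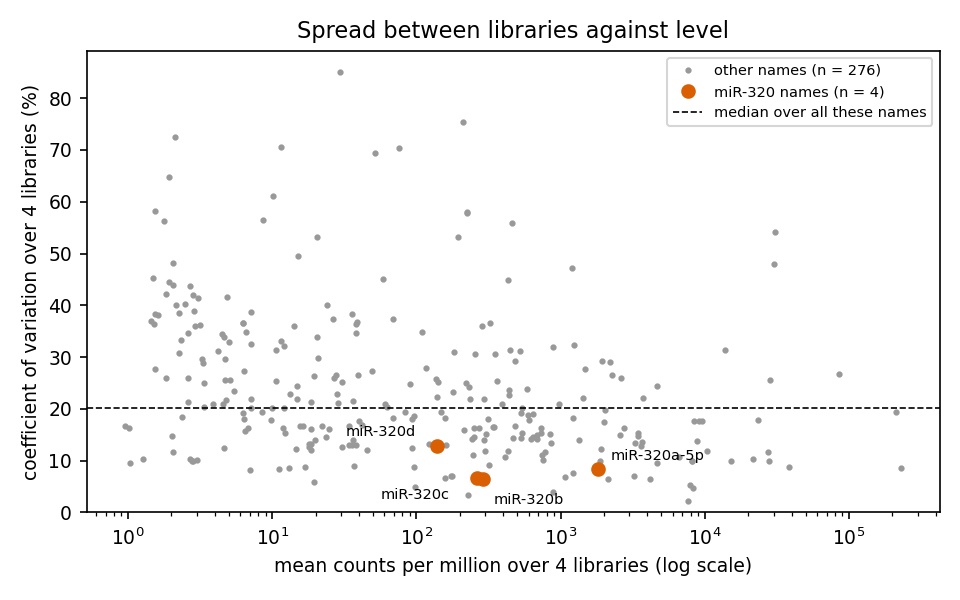
Coefficient of variation over 4 libraries against mean CPM (log axis) for the 280 names with at least 10 counts in every library. The 4 miR-320 names among them lie between 6.52% and 12.8%, below the dashed median of 20.1%.

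Between libraries these miR-320 names varied less than the median name. Of the 6 members 4, namely miR-320a-5p to miR-320d, reached 10 counts in each library, as did 280 of the 746 names. The coefficient of variation was 8.48% for miR-320a-5p, 6.52% for miR-320b, 6.68% for miR-320c and 12.8% for miR-320d, against a median of 20.1% over the 280 names and 16.2% over the 133 names with at least 1000 counts in every library. From the lowest, these are places 20, 10, 12 and 60 of 280. The summed family had 7.39%, and with TMM and DESeq2 scaling it had 4.70% and 4.91%, where the medians over the 280 names were 19.3% and 19.4%. With upper-quartile scaling, which the paper used, the summed family had 7.66%, where the median was 19.8%. For miR-484 it was 22.2% over 3 libraries, and 9.59% without replicate 2.

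A library standing apart was sought with Dixon's ratio, the gap of the most extreme library to its neighbour divided by the range, at the 95% critical value for 4 samples. Of the 4 miR-320 names with at least 10 counts in every library, miR-320d passed it, at 0.878, with replicate 4 low. Over the 280 names 11.1% passed, so 1 of 4 is not a result about the family. The ratios of miR-320a-5p, miR-320b and miR-320c were 0.519, 0.416 and 0.573. In place of the library total, TMM, upper-quartile and DESeq2 scaling gave 0.811, 0.779 and 0.777 for miR-320d, which are below the critical value. Replicate 4 also had a median log2 deviation of -0.15 from the mean of the other libraries over the 280 names, beside -0.39 for miR-320d, -0.18 for miR-320c, -0.14 for miR-320b and -0.00205 for miR-320a-5p. Its part in the low value of miR-320d was not tested. In replicate 1, miR-320a-5p deviated by -0.22 and miR-320d by 0.10, against a median of -0.05.

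The 3 names whose log2 CPM, centred over the 4 libraries, came nearest to that of miR-320a-5p were miR-184, miR-93-5p and miR-597-5p. Their mean absolute differences were 0.02, 0.03 and 0.03, against a median of 0.23 over 279 names. Summed over the 4 libraries, miR-184 had 65 counts, miR-93-5p 773908 and miR-597-5p 358. At counts as low as those of miR-184 and miR-597-5p, counting error is large and their places are not secure. miR-320b was at place 12 in this order with 0.06, miR-320c at place 28 with 0.09 and miR-320d at place 89 with 0.16. For miR-484, over the 3 libraries with a value, miR-15b-5p, miR-410-5p and miR-641 were nearest, with 0.02, 0.02 and 0.04 against a median of 0.28 over 280 names. Their summed counts over the 4 libraries were 488687, 431 and 173, so the same limit holds for miR-410-5p and miR-641. miR-320a-5p was at place 43 for miR-484, with 0.14. The nearest names, miR-93-5p and miR-15b-5p included, were picked as the smallest of all these differences over only 4 or 3 libraries. Such values are small by selection, and whether these names vary together was not tested.

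Whole and fractional values differed between the members. All values of miR-320a-5p, miR-484 and miR-320e were whole. Some values of miR-320b and miR-320c were whole only after multiplying by 2, and each has 2 hairpin genes, while those of miR-320d needed a factor of 3 with 2 hairpin genes in RefSeq. Of the 40 names with values that were not whole, 37 matched a RefSeq mature name, and for 19 of these this factor equalled the number of hairpin genes. Over 1 hairpin gene was found for 22 of the 37, whereas 45 names with a value have over 1 hairpin gene. Fractional values and the number of hairpin genes thus matched only in part. How the authors' counting shared reads between hairpins is not given in the sources used here, so the proportions of miR-320b, miR-320c and miR-320d depend on that step.

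The arm name of miR-320a-5p deserves the same care. The table holds 538 names ending in 5p and 18 ending in 3p. Of 434 names ending in 5p whose 3p partner has a RefSeq sequence, 10 had that partner as a name of its own. In 5 pairs of 5p names, such as miR-103a-1-5p and miR-103a-2-5p, the 5p sequences differ and the 3p sequences are identical. For 4 of these pairs the counts lay within 10% of each other in every library with both, and for miR-103a-2-5p over miR-103a-1-5p the ratio was 1.00 to 1.01. The fifth pair, miR-29b-1-5p over miR-29b-2-5p, had a ratio of 1.202 to 1.284. Which arm of the miR-320a hairpin the 92472 counts of miR-320a-5p came from was not tested.

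A further list of miRNAs known to bypass part of the canonical route was set beside the members, but few of them could be measured. Among the members, a route without Drosha was given above only for miR-320a and miR-484. The 5 listed names with a value were each lower than miR-320a-5p to miR-320d. Against miR-320e, with a mean of 3.78 CPM in 2 libraries, miR-1260b, miR-664a-5p and miR-664b-5p were higher, and miR-664b-3p and miR-1229-3p lower. From a list of 21, made up of mirtrons, which are spliced introns, of miRNAs derived from snoRNAs or resembling tRNAs, and of the Dicer-independent miR-451a, 16 have no name in the table, among them 10 of the 11 mirtrons, so their level was not measured. The other 5 miRNAs had 6 names, of which 5 had a value and 3 had at least 10 counts in every library. miR-1260b, which resembles a tRNA, had 27.7 CPM ± 7.35 (SD, n = 4). The snoRNA-derived miR-664a-5p had 18.1 CPM ± 2.28 and miR-664b-5p had 4.72 CPM ± 1.21 (SD, n = 4), while miR-664b-3p had 1.71 CPM ± 1.02 (SD, n = 3). The only mirtron with a value was miR-1229-3p, with 1.35 CPM ± 0.495 (SD, n = 4), and miR-451a was blank. Together these names had 53.2 CPM ± 9.48 (SD, n = 4), and the summed miR-320 family was 41.5 to 56.5 times as high within the 4 libraries. With 65.0 CPM in the 3 libraries where it was listed, miR-484 alone differed from their sum by less than its own SD.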

How the data were processed

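miR-seq was made with a QIAseq miRNA kit per the paper's methods, whereas the labels describe mRNA capture. The deposited values are unnormalized estimated counts per miRNA name, which the authors obtained by trimming with Trimmomatic, discarding long reads, mapping with Bowtie to hg38 and counting with miRDeep2. The annotation release is not given in the sources used here.

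Members and lists were chosen with earlier results of these data known. Members were matched by name. Named in addition were names sharing a seed, a list of non-canonical miRNAs, and a label check list of 10 names, of which 7 are in the table and 6 had a value. The 2 neighbours in rank on either side and the 3 names nearest in centred log2 CPM were named too. miR-1-3p of the label check list had 0.869 CPM in 2 libraries. The 5 paralogous pairs and the distances to promoters were chosen after values were seen. The plan did not foresee blanks, which were left out of means and added nothing to sums and ranks.

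CPM, ratios with a pseudocount of 0.5 and exact sign-flip tests came from scipy 1.17.1, numpy 2.4.6 and pandas 2.3.3 under Python 3.11.15, and plots from matplotlib 3.10.9. Rounded counts gave scaling factors in edgeR 4.0.16 and DESeq2 1.42.0 (R 4.3.3). All pairs of libraries differed by more than sampling noise (chi-square per degree of freedom 549.9 to 3442) and were counted separately. Steps were tested on simulated data. Sequences and hairpin positions are from RefSeq (GRCh38.p14, the same build as hg38), counted from 1.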

Additional observations from a re-analysis of the deposited data

Results flagged for a closer look

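miR-320d had 113 CPM in replicate 4 and 146 to 151 CPM in the other 3 libraries. The gap divided by the range was 0.878, above the 95% critical value for 4 samples, which chance passes in about 1 in 20 groups. Replicate 4 was the low library for 5 and the high library for 2 of the 31 names that passed among 280, and replicate 1 for 4 and 17. miR-320d did not pass with TMM, upper-quartile or DESeq2 scaling.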

How the results depend on the processing

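Of 67 recomputed values, 16 moved beyond a set limit. For levels and the miR-320a part, this limit was the SD between libraries. For coefficients of variation it was the SD of the values with single replicates left out. For counts it was a factor of 1.5, or any change to or from 0. A reversal could be scored only for the log2 ratio of the family to miR-484, where none occurred, so it says nothing about the other values. The log2 ratio of the family to miR-484, was judged by its direction alone, since its test could not pass a threshold in any setting. It was 4.82 with miR-320a-5p alone and 5.66 with counts weighted by hairpin genes, each over 1 SD from 5.30. Without Let-7 and miR-98 in the denominator, which shrinks it by construction, the summed family had 6743 CPM and miR-484 169 CPM. With miR-320a-5p alone in place of the sum the level was 1816 CPM. With counts multiplied by hairpin genes, chosen after seeing the data, the sum was 1992 CPM and the miR-320a part 56.7%. With blanks as 0 counts, also chosen after seeing the data, miR-484 had 48.7 CPM with a coefficient of variation of 70.9%. In that setting the log2 ratio of the family to miR-484 was 7.96, and 4 neighbouring pairs kept 1 order. With only members of at least 10 counts in every library, 3 pairs were left to compare. The coefficient of variation of the sum was 4.70% with TMM and 4.91% with DESeq2 scaling, but 7.66% with upper-quartile scaling. The cause was not tested. Dropping single replicates moved the coefficient of variation between 5.40% and 8.91% for the sum and between 9.59% and 29.5% for miR-484. The number of miR-320 names with a library standing apart was 0 with TMM, upper-quartile and DESeq2 scaling, against 1. Counting any listed value, 5 names of the list of non-canonical miRNAs were detected, against 3 names. No paired analysis was possible because all 4 libraries belong to 1 group, and a sign-flip test on them cannot go below 0.125.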

Other observations

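The highest count beside a blank belonged to miR-182-5p, with 214667 counts in replicate 1 and blanks in the other 3 libraries. miR-23a-5p had 96580 counts in replicate 2 alone and miR-134-5p 18453 in replicate 3 alone. In all, 1210 of the 2984 cells of the table were blank, and 125 names were blank in every library.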
